A study of Homo sapiens with 4 samples.

Results

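PINK1 and the mitophagy receptors are 9 genes chosen by name for their place in the removal of damaged mitochondria, and 8 of them were found among the 22637 genes of the count table. These are the kinase PINK1, the ubiquitin-binding adaptors OPTN, CALCOCO2 and TAX1BP1, the deubiquitinase USP30, and the receptors BNIP3, BNIP3L and PHB2. The receptor FUNDC1 was not analysed here. The RNA of 4 human prostate cancer cell lines was sequenced, 1 library for each. Among them, LNCaP is an established castration-sensitive line, and LN-OlapR is its subline made resistant to the PARP inhibitor olaparib. C4-2B is a castration-resistant descendant of LNCaP, and 2B-OlapR is the resistant subline made from it. All 4 lines are labelled untreated and, per the deposited design, were grown for 48 h without a selection agent before RNA isolation, whereas the study's methods give a longer time and name only the supplemented growth medium. Per the study's methods, both resistant sublines were selected by long exposure to rising olaparib and are kept in the drug, and whether either is a clone or a pool is not given in the sources used here. Each line is thus 1 culture and 1 library, so no difference within a pair of lines has a replicate check, and p-values are given only where both resistant lines were set against both parental lines. LN-OlapR with LNCaP is called the LN pair, and 2B-OlapR with C4-2B the 2B pair. The study had singled out PINK1 partly from these same RNA data, as a gene raised in resistant cells. The ratios, rank and p-values of PINK1 given below therefore restate that choice and are no independent support for it.

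Mitophagy is the selective breakdown of mitochondria by autophagy. In healthy mitochondria PINK1 is imported and degraded, whereas on depolarized mitochondria it stays on the outer membrane, phosphorylates ubiquitin, and the ubiquitin chains built there are then bound by adaptors that also bind ATG8 proteins on the growing autophagosome. USP30 removes ubiquitin from the outer membrane and opposes this route. BNIP3, BNIP3L (NIX), FUNDC1 and PHB2 are mitochondrial membrane proteins that bind ATG8 proteins themselves. BNIP3 and BNIP3L are known targets of the hypoxia-inducible factors (HIF), and this arm can act without PINK1, although PHB2 also takes part in the PINK1 route.

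The table holds estimated counts, which were scaled between libraries by the TMM method. Levels are normalized CPM, that is counts per 1e6 counts of the scaled library. The libraries held from 19950537 to 26394267 counts, and genes encoded in mitochondrial DNA took from 5.69% to 10.3% of them, more in the LN pair than in the 2B pair. All 9 luminal prostate markers looked up were present in every library, with KLK3 (prostate-specific antigen) ranging from 1428 counts in LNCaP to 62636 in LN-OlapR. Of 10 markers of basal, stromal, immune, endothelial and neuroendocrine cells, 7 were not analysed here, KRT14 had from 3 to 13 counts, SYP from 50 to 73 and COL1A1 from 148 to 408. The libraries are of whole cultures, so a lower level in every cell and fewer cells with the mRNA cannot be told apart.

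Of the members, 6 had an entry in the RefSeq promoter table (GRCh38.p14), which spans 250 bases before to 50 bases after an annotated start. PINK1 and BNIP3L had none. The stretch before BNIP3 is printed because BNIP3, among the 6 members searched, had the most matches to the core of the hypoxia response element. The core was searched as ACGTG or GCGTG on both strands. The stretch lies at chr10:131982014-131982173 on the minus strand, upstream of the first GENCODE transcript of BNIP3. It is written 5′ to 3′ with the matches in capitals.
BNIP3 promoter: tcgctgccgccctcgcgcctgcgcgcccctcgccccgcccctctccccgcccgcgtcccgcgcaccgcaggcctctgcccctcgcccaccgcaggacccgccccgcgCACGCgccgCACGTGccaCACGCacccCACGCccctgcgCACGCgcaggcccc
These 160 bases, with a GC content of 83.8%, run from 250 to 91 bases before the RefSeq start and hold 6 matches, all between 143 and 100 bases before the start. A match of GCGTG on the other strand reads CACGC here, and the palindrome CACGTG holds a pair of overlapping matches, 1 on each strand. Of all 34788 promoters in the RefSeq table, 43.1% had at least 1 match and 0.630% had at least 6, shares that were not matched for GC content. CALCOCO2 had 1 match, TAX1BP1 and USP30 had 1 at 1 of their 2 annotated starts, and OPTN and PHB2 had 0. A match describes the letters of these windows and is not a measured binding site.

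**Figure D1:**
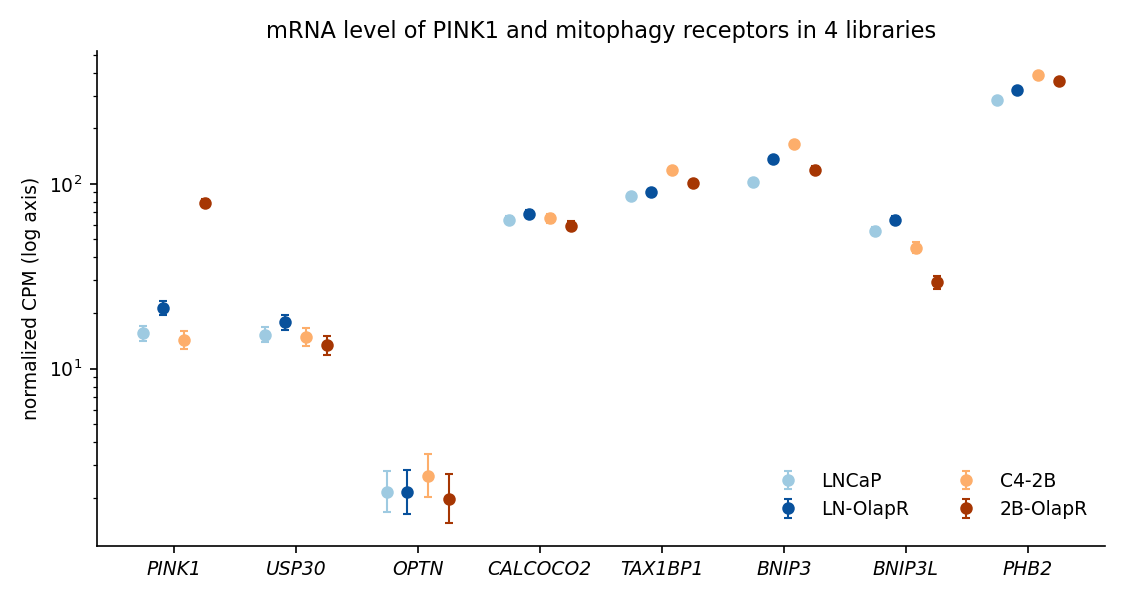
Normalized CPM (log axis) of the 8 genes in each of the 4 libraries, with 95% Wilson intervals that cover counting error only. PINK1 in 2B-OlapR, at 79.1, stands above its other 3 values of 14.3 to 21.4, whereas for every other gene the highest library is at most 2.16 times the lowest.

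PINK1 (chromosome 1, 20633455 to 20651511, plus strand) was highest in 2B-OlapR. Its normalized CPM was 15.5 in LNCaP and 21.4 in LN-OlapR, against 14.3 in C4-2B and 79.1 in 2B-OlapR, and the highest level was 5.55 times the lowest. The parental lines were close to each other, with a log2 ratio of C4-2B over LNCaP of -0.12 and a 95% counting interval of -0.34 to 0.09 that includes 0, so their order was not detectable at this depth. LN-OlapR was 1.38-fold above LNCaP, a log2 ratio of 0.46 (0.27 to 0.65), and 2B-OlapR was 5.54-fold above C4-2B, a log2 ratio of 2.47 (2.29 to 2.65). The 2 resistant lines differed from each other more than the 2 parental lines did, by a log2 ratio of 1.89 (1.74 to 2.03) in favour of 2B-OlapR. The ratio of the 2B pair exceeded that of the LN pair by 2.01 (1.75 to 2.27) on the log2 scale. Of all genes averaging 1 normalized CPM or more over a pair, the filter used unless another is stated, 85.6% had a lower ratio than PINK1 in the LN pair and 99.1% in the 2B pair.

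PINK1 overlaps its antisense gene PINK1-AS, which lies on the other strand of chromosome 1 from 20642657 to 20652193. PINK1-AS had 280 and 261 counts in LNCaP and LN-OlapR, and 155 and 302 in C4-2B and 2B-OlapR. It was thus highest in the same library as PINK1, but its log2 ratio was 0.10 (-0.14 to 0.35) in the LN pair and 0.94 (0.66 to 1.22) in the 2B pair, the latter well below that of PINK1. The libraries were made with a stranded kit, but whether strand was used in counting is not given in the sources used here, so reads of the 2 genes may be mixed. With both genes summed, the log2 ratio was 0.33 in the LN pair and 2.10 in the 2B pair.

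Levels of different genes were compared as normalized CPM per kb of the longest annotated transcript. On this scale PINK1 was 7th of 8 in LNCaP and in C4-2B, 6th in LN-OlapR and 4th in 2B-OlapR. PHB2 led in every library, from 186 to 256 CPM per kb, followed by BNIP3 with 33.4 to 53.9, and OPTN was last with 0.56 to 0.75. PINK1 had 4.07, 5.6, 3.73 and 20.7 CPM per kb in LNCaP, LN-OlapR, C4-2B and 2B-OlapR. Only in 2B-OlapR did it pass CALCOCO2, at 16.1, and BNIP3L, at 8.13. The longest annotated transcript of PINK1 has 3821 bases and the longest coding one 2660, and with the shorter length PINK1 was 6th in LNCaP, LN-OlapR and C4-2B and 3rd in 2B-OlapR.

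The other 7 members were compared as a group with PINK1. In the LN pair 0 of the 8 members were at least 1.5-fold higher, a size that 10.6% of all genes reached, and 0 were at least 1.5-fold lower, against 10.8% of all genes. At 2-fold the background was 4.64% higher and 4.83% lower. Of the 8 members, 7 had a ratio above 0 in LN-OlapR, against 49.6% of all genes, and for 5 of the 8 the counting interval lay above 0, as it did for 31.7% of all genes. In the 2B pair 1 member, PINK1, was at least 1.5-fold higher (10.7% of all genes) and also at least 2-fold higher (4.42% of all genes). BNIP3L was the 1 member at least 1.5-fold lower (13.5% of all genes), and 0 were 2-fold lower (5.65% of all genes). The other 7 members were all below 0 in the 2B pair, where 50.0% of all genes were, and for 5 of them the interval lay below 0, against 30.8% of all genes. Their median log2 ratio was 0.20 in the LN pair and -0.23 in the 2B pair, whereas the median over all genes was -0.00 in both. With 8 genes, these shares describe the members and were not tested.

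**Figure D2:**
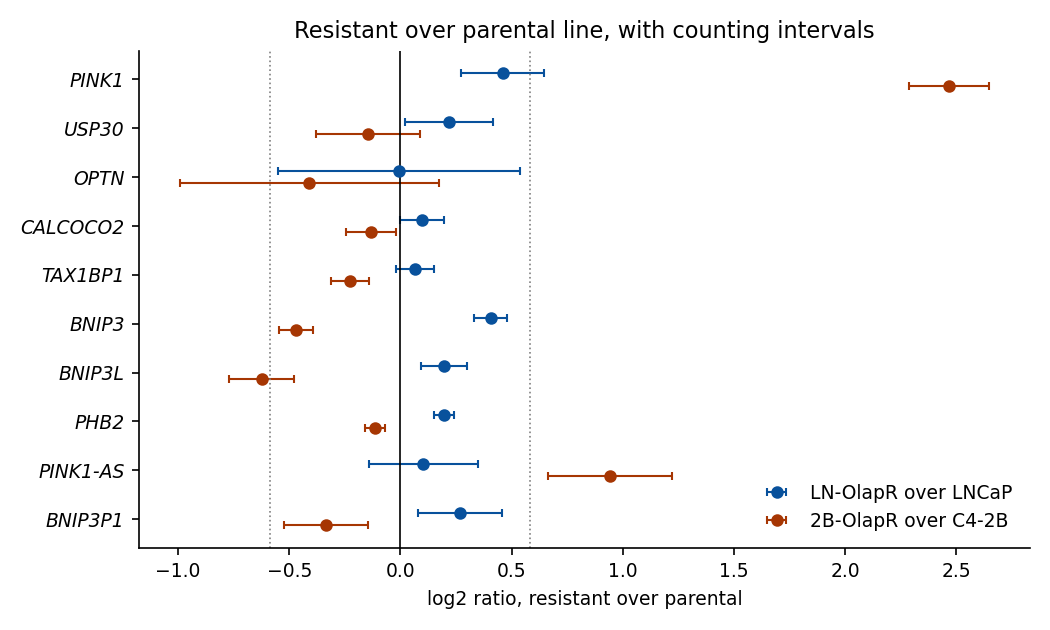
Log2 ratio of the resistant over the parental line for the 8 members, PINK1-AS and the BNIP3 pseudogene BNIP3P1, in the LN pair (blue) and the 2B pair (brown), with 95% counting intervals and dotted lines at 1.5-fold. PINK1 at 2.47 lies far to the right in the 2B pair, and the other 7 members lie from -0.62 to -0.11 there.

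The ubiquitin-binding adaptors among the members differed little between resistant and parental cells, unlike SQSTM1, which is given below. OPTN, the optineurin gene (chromosome 10, 13099449 to 13138308), was near the lower end of detection, with 58, 50, 54 and 41 counts in LNCaP, LN-OlapR, C4-2B and 2B-OlapR. Its log2 ratio was -0.01 (-0.55 to 0.54) in the LN pair and -0.41 (-0.99 to 0.17) in the 2B pair, and no difference was detectable at this depth. CALCOCO2 encodes NDP52 (chromosome 17, 48830988 to 48866522) and had 64.0, 68.5, 65.1 and 59.5 normalized CPM in the same order. These 4 values lie closer together than those of any other member, with log2 ratios of 0.10 (-0.00 to 0.20) and -0.13 (-0.24 to -0.02). TAX1BP1 (chromosome 7, 27739331 to 27844564) had 86.0, 90.1, 118 and 101 normalized CPM. Both libraries of the 2B pair were above those of the LN pair, C4-2B over LNCaP by a log2 ratio of 0.46 (0.38 to 0.54), and within the pairs the ratios were 0.07 (-0.02 to 0.15) and -0.23 (-0.31 to -0.14).

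USP30, the deubiquitinase that opposes PINK1 (chromosome 12, 109023089 to 109088026), had 15.3, 17.8, 14.9 and 13.4 normalized CPM. Its log2 ratio was 0.22 (0.02 to 0.42) in the LN pair and -0.15 (-0.38 to 0.09) in the 2B pair, where no difference was detectable. Because both genes were measured in the same library, the ratio of PINK1 to USP30 does not depend on the scaling between libraries. Per kb, PINK1 had 0.996 times the level of USP30 in LNCaP, 1.18 times in LN-OlapR and 0.941 times in C4-2B, and 5.78 times in 2B-OlapR. These values depend on the length used for PINK1. Per kb of the longest coding transcript, PINK1 had 5.85, 8.04 and 5.36 CPM in LNCaP, LN-OlapR and C4-2B, and USP30 had 4.09, 4.75 and 3.97. In the 2B pair the ratio of PINK1 to USP30 was 6.13-fold higher in the resistant line, a log2 difference of 2.62 (2.32 to 2.91). In the LN pair the log2 difference was 0.24 (-0.03 to 0.51), an interval that includes 0.

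The receptors that can act without PINK1 went in opposite directions in the 2 pairs. This was not particular to them, as other members also had a lower ratio in the 2B pair than in the LN pair. The log2 difference was -0.37 (-0.67 to -0.06) for USP30, -0.29 (-0.41 to -0.17) for TAX1BP1 and -0.23 (-0.38 to -0.08) for CALCOCO2. BNIP3 (chromosome 10, 131966455 to 131982013, minus strand) had 102 and 136 normalized CPM in LNCaP and LN-OlapR, and 165 and 119 in C4-2B and 2B-OlapR. C4-2B was highest and LNCaP lowest, and the resistant lines lay between them. The log2 ratio was 0.41 (0.33 to 0.48) in the LN pair, a level 1.32-fold higher in LN-OlapR, and -0.47 (-0.54 to -0.39) in the 2B pair, a level 1.38-fold lower in 2B-OlapR. The 2 ratios differed by -0.88 (-0.98 to -0.77). BNIP3P1, a processed pseudogene of BNIP3 on chromosome 14, had 16.2, 19.5, 24.3 and 19.3 normalized CPM. It stood in the same order at the ends, lowest in LNCaP and highest in C4-2B, with log2 ratios of 0.27 (0.08 to 0.46) and -0.33 (-0.52 to -0.14). As the counts are estimates and the 2 sequences are alike, reads may have been shared between them, and with both summed BNIP3 had 0.39 and -0.45.

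BNIP3L (chromosome 8, 26382898 to 26505636) had 55.4 and 63.4 normalized CPM in LNCaP and LN-OlapR, and 45.3 and 29.3 in C4-2B and 2B-OlapR. It was lowest in 2B-OlapR, the library where PINK1 was highest. Its log2 ratio was 0.20 (0.09 to 0.30) in the LN pair and -0.62 (-0.77 to -0.48), or 1.54-fold lower, in the 2B pair, and the 2 differed by -0.82 (-1.0 to -0.64). PHB2, prohibitin 2 of the inner membrane (chromosome 12, 6965327 to 6970825, minus strand), had 283, 324, 388 and 358 normalized CPM. Its deep counts gave narrow intervals around small ratios, 0.20 (0.15 to 0.24) in the LN pair and -0.11 (-0.16 to -0.07) in the 2B pair. Within each library, the ratio of PINK1 to BNIP3 was 7.67-fold, to BNIP3L 8.54-fold and to PHB2 6.0-fold above that of C4-2B in 2B-OlapR. In the LN pair the same ratios were 1.04, 1.20 and 1.20-fold, and for BNIP3 the log2 difference of 0.05 had an interval of -0.15 to 0.26 that includes 0.

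Between the parental lines 1 of 8 members, BNIP3, was at least 1.5-fold higher in C4-2B than in LNCaP, a log2 ratio of 0.69 (0.62 to 0.76), against 16.1% of all genes, and 0 were lower, also against 16.1%. Between the resistant lines PINK1 was the 1 member at least 1.5-fold higher in 2B-OlapR than in LN-OlapR, against 17.8% of all genes. BNIP3L was the 1 member at least 1.5-fold lower, against 20.0% of all genes, with a log2 ratio of -1.11 (-1.25 to -0.98) and a level 2.16-fold lower. These comparisons share their libraries with the 2 pairs.

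Both resistant lines were also set against both parental lines, 2 libraries a group, with the cell background (LN or 2B) as a block that pairs each subline with its parent. By edgeR's quasi-likelihood test with Benjamini-Hochberg adjustment over 15645 genes, 0 of the 8 members and 0% of all genes passed an adjusted p of 0.05, while 1279 genes had an unadjusted p under 0.05. PINK1 had a log2 ratio of 1.47 in this edgeR fit, with an unadjusted p of 0.0424 and an adjusted p of 0.601, and it was higher in 2 of 2 resistant lines. For the other 7 members the ratios lay from -0.21 to 0.04 and the adjusted p-values from 0.845 to 0.983. The fit has 1 residual degree of freedom, was added after the values were seen, and takes as independent 2 backgrounds of which one descends from the other.

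HIF targets other than the receptors were compared with BNIP3 and BNIP3L, as both are known HIF targets. Of 24 listed genes CA9 was not analysed here, and 22 passed the filter in both pairs. In the LN pair 18 of the 22 were above 0 (49.6% of all genes) and 4 below. Their median log2 ratio was 0.33 (0.10 to 0.46), where the interval is over the genes of the list. In the 2B pair 4 were above 0 and 18 below (50.0% of all genes), with a median of -0.48 (-1.01 to -0.04). Only 2 were at least 1.5-fold higher in the LN pair and 0 lower, whereas in the 2B pair 0 were higher and 10 lower, 6 of them at least 2-fold. The corresponding shares of all genes were 10.6%, 10.8%, 10.7%, 13.5% and 5.65%. The median of the 2B pair was closer to 0, at -0.16, over those averaging 10 normalized CPM or more.

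VEGFA, the angiogenic growth factor gene, followed the order of BNIP3 with larger steps. It had 1693 and 2316 counts in LNCaP and LN-OlapR, 3568 and 1739 in C4-2B and 2B-OlapR, and log2 ratios of 0.66 (0.57 to 0.75) in the LN pair and -1.05 (-1.14 to -0.97) in the 2B pair. DDIT4, an inhibitor of mTORC1 signalling, was lowest of the list in the 2B pair with -1.84 (-1.93 to -1.74) and had 0.43 in the LN pair. PFKFB4, HILPDA, EGLN3 and ANKRD37 were also at least 2-fold lower in 2B-OlapR, with -1.74, -1.39, -1.17 and -1.01, whereas in the LN pair they had -0.05, 0.34, -0.58 and -0.03. NDRG1 was highest in the LN pair with 1.40 (1.34 to 1.46) and had -0.04 in the 2B pair, and MXI1 was highest in the 2B pair with 0.51. Between the parental lines 21 of the 22 targets were higher in C4-2B, with a median of 0.44, against 48.6% of all genes and a median of -0.02. BNIP3 was also higher in C4-2B, with 0.69 (0.62 to 0.76), whereas BNIP3L was lower, with -0.29 (-0.41 to -0.17). HIF1A mRNA, whose protein is controlled mainly after translation, had -0.41 in the LN pair and -0.06 in the 2B pair, and EPAS1 (HIF-2α) had 39, 21, 13 and 36 counts with ratios of -0.67 and 1.42.

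**Figure D3:**
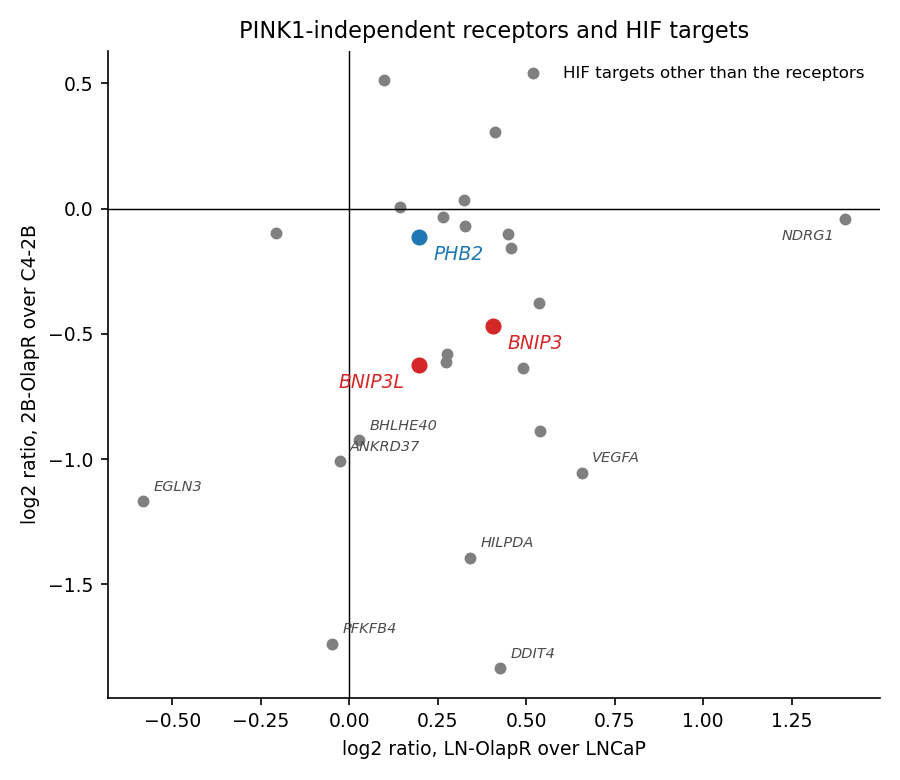
Log2 ratio in the LN pair (horizontal) and in the 2B pair (vertical) of 22 HIF targets (grey), BNIP3 and BNIP3L (red) and PHB2 (blue). Most points, with the 3 receptors among them, lie to the right of 0 and below 0. In the 2B pair 18 of the 22 targets are below 0, as are 50.0% of all genes.

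The 20 genes that import, dock and degrade PINK1 had a median log2 ratio of 0.06 in the LN pair and 0.01 in the 2B pair. Of these, 0 were at least 1.5-fold higher in the LN pair (10.6% of all genes) or in the 2B pair (10.7%), and 0 (10.8%) and 1 (13.5%) were lower. That gene was OMA1, an inner membrane protease, with -0.76 (-0.99 to -0.53). PMPCA, a subunit of the matrix peptidase that first cleaves PINK1, was highest there with 0.55. TOMM7, the small translocase subunit that holds PINK1 at the outer membrane, had -0.23 in the LN pair, the lowest of the list, and 0.26 in the 2B pair. PARL, the protease that cleaves imported PINK1, had 0.28 and 0.08, and PMPCB was highest in the LN pair with 0.40.

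The ubiquitin ligases, conjugating enzymes and deubiquitinases of mitophagy listed here were 16 genes, and all 16 passed the filter, with medians of -0.09 in the LN pair and -0.07 in the 2B pair. MUL1, a ligase of the outer membrane, was highest in the 2B pair, with 619, 532, 507 and 1166 counts and log2 ratios of -0.01 (-0.18 to 0.15) and 1.18 (1.03 to 1.33). In the 2B pair 2 genes were at least 1.5-fold higher, MUL1 and UBE2D2 with 0.62, and 2 were lower, USP15 with -0.74 and SIAH1 with -0.64, near the shares of all genes of 10.7% and 13.5%. RNF185 was lowest in the LN pair with -0.59, the 1 gene at least 1.5-fold lower there (10.8% of all genes), and USP35 was highest with 0.45.

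Outer membrane proteins that are ubiquitylated in mitophagy had a median of 0.08 in both pairs over 11 genes. The mitofusins and VDAC channels stayed within 1.5-fold, VDAC1 being highest in the LN pair with 0.31 and VDAC2 in the 2B pair with 0.42. The 1 gene past 1.5-fold was HK2, hexokinase 2 (13.5% of all genes were as much lower in the 2B pair), with 0.22 in the LN pair and -0.97 (-1.08 to -0.86) in the 2B pair, and CISD1 was lowest in the LN pair with -0.11. HK2 is also a known HIF target.

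SQSTM1 (p62) stood apart from the adaptors among the members. It had 6787 and 10530 counts in LNCaP and LN-OlapR and 6685 and 12373 in C4-2B and 2B-OlapR, and was higher in both resistant lines, with log2 ratios of 0.84 (0.79 to 0.88) and 0.87 (0.83 to 0.91). The list of other adaptors, TBK1 and its partners, 7 genes with SQSTM1, had a median of -0.14 in the LN pair and 0.21 in the 2B pair. TBK1, the kinase that phosphorylates OPTN, was lower in both resistant lines with -0.16 (-0.29 to -0.04) and -0.49 (-0.66 to -0.33), the lowest of the list in the 2B pair. TBKBP1, a TBK1-binding protein, had 1.23 in the LN pair and -0.18 in the 2B pair, and TOLLIP had -0.19 and 0.51.

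Further receptors, 10 in all, had medians of -0.03 and 0.11, and 0 were at least 1.5-fold higher (10.6% and 10.7% of all genes) or lower (10.8% and 13.5%) in the LN and 2B pairs. PHB1, the partner of PHB2 in the prohibitin complex, had 0.10 (0.05 to 0.15) and 0.16 (0.10 to 0.22), so it did not share the negative ratio of PHB2 in the 2B pair. FKBP8 had 0.02 and 0.04, and BCL2L13 had -0.13 and 0.25. FUNDC2 was highest in both pairs with 0.55 and 0.46, MCL1 was lowest in the LN pair with -0.57, and NLRX1 was lowest in the 2B pair with -0.42. The 5 genes for turnover of BNIP3 and BNIP3L had medians of 0.10 and 0.01. FBXL4, which targets both receptors for degradation, had 0.33 and 0.40, and PPTC7, which acts with it, was lowest in both pairs with -0.23 and -0.53. CUL1 was highest in the LN pair with 0.65 and SKP1 in the 2B pair with 0.43.

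The ATG8 proteins to which the receptors bind were nearly level, with medians of 0.05 and 0.06 over the 5 of 7 genes that passed the filter. MAP1LC3C was not analysed here, and MAP1LC3A had from 3 to 14 counts. MAP1LC3B2 was highest in the LN pair with 0.14 and lowest in the 2B pair with -0.18, GABARAPL1 was lowest in the LN pair with -0.13, and GABARAP had the highest ratio in the 2B pair, 0.25. The ULK1 complex and the FUNDC1 kinases and phosphatase had medians of -0.16 and -0.13 over 10 genes. ULK2 was 2.89-fold lower in LN-OlapR, with a log2 ratio of -1.53 (-1.72 to -1.34), and had 0.07 in the 2B pair. SRC and CSNK2A2 were at least 1.5-fold lower in 2B-OlapR (13.5% of all genes) with -0.84 and -0.78, RB1CC1 was highest in the LN pair with 0.30 and CSNK2A1 in the 2B pair with 0.40.

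**Figure D4:**
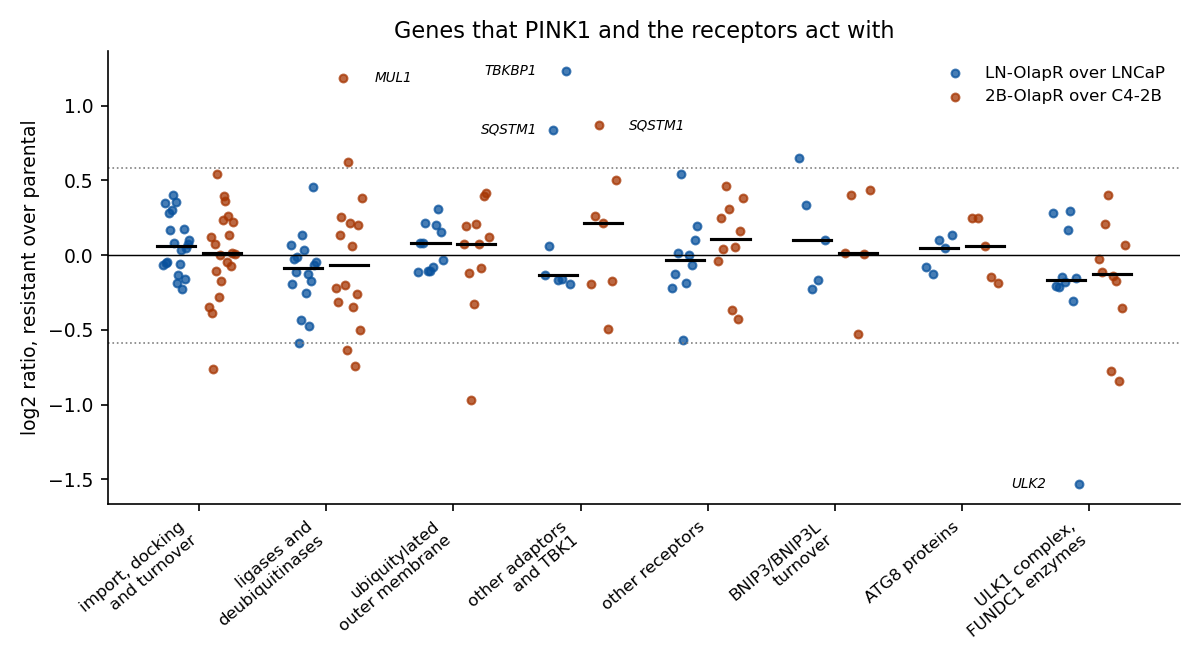
Log2 ratio of each gene past the filter in 8 lists of genes that act with PINK1 or the receptors, for the LN pair (blue) and the 2B pair (brown), with the median as a black bar and dotted lines at 1.5-fold. The medians lie between -0.16 and 0.21, and MUL1, TBKBP1, ULK2 and SQSTM1 are named.

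Of 15 transcription factors and signalling genes that have been reported to regulate these genes, TFEB, which drives lysosomal and autophagy genes, was higher in both resistant lines. It had 110, 182, 335 and 626 counts and log2 ratios of 0.93 (0.59 to 1.27), the highest of the list in the LN pair, and 0.88 (0.69 to 1.07). FOXO1 was lowest in the 2B pair with -0.95 (-1.34 to -0.55) and had 0.26 in the LN pair. The medians were 0.14 and 0.09.

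The genes around PINK1 on chromosome 1 were examined next. Neighbours were taken among genes averaging 1 normalized CPM or more over the 4 libraries, the 3 nearest on each side. PLA2G2A, a secreted phospholipase that lies 653 kb before PINK1, had 47, 20, 6 and 220 counts. Its log2 ratio was 5.07 (3.94 to 6.19) in the 2B pair, where only 6 counts came from C4-2B. CAMK2N1, an inhibitor of CaM kinase II that lies 147 kb before PINK1, had 459, 207, 238 and 7340 counts. Its log2 ratio in the 2B pair was 4.93 (4.74 to 5.11). Both were highest in 2B-OlapR, as PINK1 was, and both were lower in LN-OlapR than in LNCaP, with -1.01 and -0.94. MUL1 is also one of these neighbours and lies 125 kb before PINK1. On the other side, DDOST, a gene for an oligosaccharyltransferase subunit 256 bases after PINK1, had 0.57 (0.50 to 0.64) and HP1BP3 had 0.36 (0.26 to 0.46), whereas EIF4G3 had -0.04 (-0.15 to 0.06). In the LN pair these 3 had 0.03, -0.09 and -0.13.

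A window of 1 Mb on each side, chosen after these values were seen, held 14 other genes by the same filter. OTUD3 and HTR6, also named after their values were seen, had log2 ratios of 1.06 (0.85 to 1.27) and 2.30 in the 2B pair. In the LN pair OTUD3 had -0.55 (-0.77 to -0.34). The remaining genes of the window in the 2B pair were TMCO4 with 0.02, RAP1GAP with 0.28 and HS6ST1P1 with 0.45. ECE1 had -0.36 (-0.53 to -0.19) and NBPF3 had -0.55 (-1.06 to -0.04) there. HTR6 had 3, 65, 8 and 42 counts, so its ratios rest on few reads, and in C4-2B both HTR6 and PLA2G2A were below 1 normalized CPM, so that within the 2B pair they are measured mainly in 2B-OlapR. As the window and these genes were picked with their values known, no count over the window is given. Whether the region's copy number differs was not tested. In the 2B pair BNIP3 differed from its own neighbours, the 3 on each side. GLRX3, TCERG1L, PPP2R2D, JAKMIP3, DPYSL4 and STK32C were all higher in 2B-OlapR (50.0% of all genes), with log2 ratios of 0.29 to 0.87 and a median of 0.67. GLRX3 and TCERG1L lie as far as 1782 and 655 kb from BNIP3. In the LN pair these neighbours had ratios of -0.07 to 2.75 and a median of 0.22, against 0.41 for BNIP3.

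**Figure D5:**
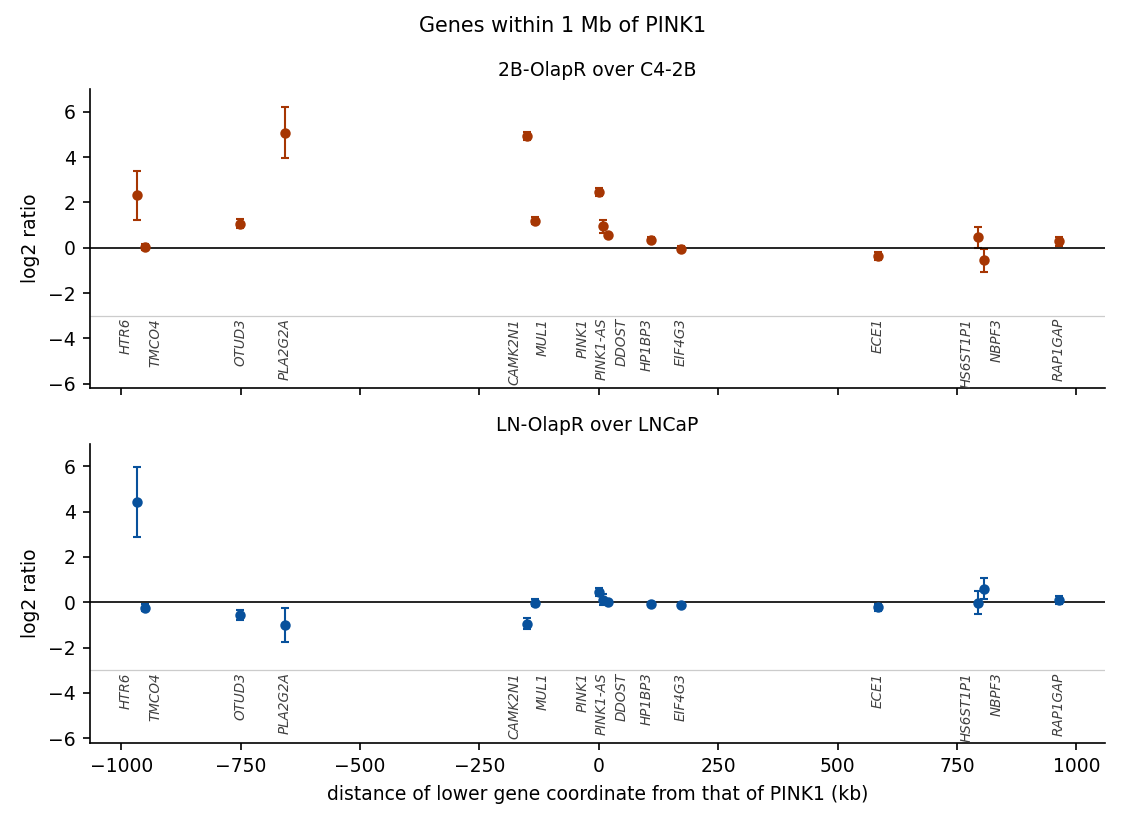
Log2 ratio with 95% counting intervals of the genes past the filter within 1 Mb of PINK1, by the distance of the gene's lower coordinate from that of PINK1 in kb, for the 2B pair (top) and the LN pair (bottom). In the 2B pair PLA2G2A is at 5.07, CAMK2N1 at 4.93 and PINK1 at 2.47, whereas TMCO4, also before PINK1, is at 0.02. PLA2G2A had 6 counts in C4-2B, so its ratio rests mainly on 2B-OlapR. In the LN pair the one high point is HTR6 at 4.43, from 3 counts in LNCaP. The window was chosen after the values were seen.

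The genes with the profile closest to that of PINK1 were searched among 10136 genes averaging 10 normalized CPM or more, by the Euclidean distance of log2 normalized CPM centred over the 4 libraries. They were TMOD2, GPC6, SULT2B1, KLK4, OSMR, SMAD6, SLC36A1, LGALS3BP, the gene listed as ENSG00000170846 and STBD1, at distances of 0.61 to 0.84. TMOD2, the closest, had 6.99, 8.87, 5.82 and 20.7 normalized CPM in LNCaP, LN-OlapR, C4-2B and 2B-OlapR, and its log2 ratio in the 2B pair was 1.83 against 2.47 for PINK1. No gene lay within 0.5 of PINK1, a count of 0, whereas 1809 lay within 0.5 of BNIP3. This distance grows with the size of a gene's changes, and the highest level was 5.55 times the lowest for PINK1 and 1.61 times for BNIP3. The 2 counts therefore do not compare how alike the patterns are. With 4 libraries the likeness of profiles is a description only.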

How the data were processed

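RNA was sequenced from 4 cell lines with 1 library each, and the authors deposited 1 table of estimated counts per gene, not scaled between libraries, in which 46.0% of values are not whole. The submitters' processing notes name STAR, Partek and GRCh38 (hg38) without versions or roles, and the annotation release is not given in the sources used here. Values were rounded to whole counts, as estimated counts were found where raw counts had been assumed. Scaling used the TMM factors of edgeR 4.0.16 in R 4.3.3, and other steps used Python 3.11.15. Log2 ratios had a pseudocount of 0.5 counts, and genes averaging 1 normalized CPM or more in a pair were kept. The 95% intervals are normal for ratios, from both counts, Wilson for levels and binomial for medians of lists, and they cover counting error only, or the spread over the genes of a list. With 1 library per line, no p-value was computed within a pair. Both resistant lines were tested against both parental lines with edgeR's quasi-likelihood test on genes averaging 1 normalized CPM or more over the 4 libraries, a comparison added after the data were seen. Counts of genes at least 1.5-fold or 2-fold changed stand beside the share of all genes.

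The members, gene lists and alternatives were chosen with earlier results of these data known. Named are all members, the highest and lowest gene of each list in each pair, genes of a list at least 2-fold changed, SQSTM1, PHB1, BCL2L13, FKBP8, TOMM7, PARL and TBK1, the 10 profiles closest to PINK1, PINK1-AS, BNIP3P1, and 3 neighbours on each side of PINK1 and BNIP3. Other genes were chosen after their values were seen, and 1 listed gene is not reported here. Coordinates and lengths come from GENCODE 29 on GRCh38, which held 21395 of the 22637 identifiers, and promoters from RefSeq. The alternatives were total counts, DESeq2 1.42.0 size factors, upper quartile factors, a pseudocount of 2, no filter or a mean of at least 10, mitochondrial DNA genes left out, unrounded values and other gene lengths. Counts were simulated with Poisson counting error only, which is the error that the intervals assume. Coverage near 95% was therefore set by design, and variation between cultures was not checked. On these counts for the LN pair 100.0% of 200 genes changed 4-fold were found at least 1.5-fold changed, as were 167 of 15171 unchanged genes, and intervals covered the truth for 95.3% of genes. For the 2B pair these were 100.0% of 199, 275 of 15325, and 95.2%.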

Additional observations from a re-analysis of the deposited data

Results flagged for a closer look

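The receptors BNIP3, BNIP3L and PHB2 were each higher in the resistant line of the LN pair and lower in that of the 2B pair, with counting intervals that excluded 0 in both. The log2 ratio of the 2B pair minus that of the LN pair was -0.88 for BNIP3, -0.82 for BNIP3L and -0.31 for PHB2. The pseudogene BNIP3P1 differed by -0.60 in the same way, and its reads may be shared with BNIP3. Of the other members, USP30, TAX1BP1 and CALCOCO2 also differed, by -0.37, -0.29 and -0.23. For USP30 the counting interval excluded 0 only in the LN pair, and for TAX1BP1 and CALCOCO2 only in the 2B pair. VEGFA differed by -1.71, and the median of the 22 HIF targets by -0.80, or by -0.48 over those averaging 10 normalized CPM or more. As there was 1 library per line, these differences between the pairs were not tested.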

How the results depend on the processing

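Of 324 values of the ratios, differences, counts, medians and ranks recomputed under the alternatives, 314 counted as unchanged, 10 moved and 0 of the called values changed sign. Ratios, differences and medians had to stay within their interval, or within the range of the list where the median had no interval. Counts had to stay within 1.5 times, and ranks had to be equal. The 8 edgeR ratios were held to no interval and had only to keep their sign and their call at an adjusted p of 0.05. Scaling by total counts moved 3 values in the LN pair, BNIP3 to 0.32, PHB2 to 0.11 and the median of the other adaptors and TBK1 to -0.22. Among the other genes of the lists, neighbourhoods and profiles, total counts moved 67 of 330 ratios past their interval and upper quartile factors 4 of 330, and the other 4 settings moved 0. PINK1 summed with PINK1-AS, chosen after seeing the data, had 2.10 in the 2B pair. With the union of exons as length, PINK1 ranked 6 in LNCaP, 6 in C4-2B and 3 in 2B-OlapR, and with the longest coding transcript, chosen after seeing the data, it also ranked 6, 6 and 3. Over all alternatives the ratio of PINK1 lay between 2.10 and 2.50 in the 2B pair and between 0.33 and 0.47 in the LN pair, and in the 2B pair that of BNIP3L between -0.67 and -0.60 and that of BNIP3 between -0.51 and -0.44. Values near 0 changed sign with the scaling, among them OPTN (0.00 with DESeq2 factors) and TAX1BP1 (-0.02 with total counts) in the LN pair. The median of the HIF targets in the 2B pair ranged from -0.52 to -0.16, the last over genes averaging 10 normalized CPM or more. Without the cell background as a block, the edgeR comparison of both resistant with both parental lines also called 0 genes at an adjusted p of 0.05, with 363 at an unadjusted p under 0.05, and PINK1 had 1.75. No library was left out, as each pair holds 1 library per line. The depth limits OPTN most, at 41 to 58 counts.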

Other observations

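The neighbours of BNIP3L on chromosome 8 were named after their values were seen. DPYSL2, PTK2B and TRIM35 had a higher level in 2B-OlapR than in C4-2B (50.0% of all genes did), while BNIP3L had a lower one. DPYSL2, a cytoskeletal regulator that starts 8.39 kb after the end of BNIP3L, had 717 and 695 counts in LNCaP and LN-OlapR, and 90 and 766 in C4-2B and 2B-OlapR. Its log2 ratios were 0.16 (LN pair) and 3.06 (2B pair), and C4-2B was the library that stood apart. PTK2B, a focal adhesion kinase gene, had 0.29 and 1.58. PPP2R2A, the nearest gene on the other side that does not overlap BNIP3L, had -0.11 and -0.03. CDCA2, on the same side as PPP2R2A, was also near 0 in the 2B pair, with 0.11, and TRIM35 had 0.71. Over the 6 neighbours the median was 0.99 in the 2B pair, against -0.62 for BNIP3L itself. That median depends in part on EBF2, whose ratio of 1.26 comes from 3 counts for the parental line and 8 for the resistant one. Not every member differed so from its neighbours. In the 2B pair PHB2 had -0.11 against a neighbour median of -0.11, TAX1BP1 -0.23 against -0.30, and USP30 -0.15 against -0.34.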
